A study of Mus musculus with 14 samples.

Results

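The 10 genes described here code for alpha and beta tubulins: the beta tubulins Tubb2a, Tubb2b, Tubb3, Tubb4b, Tubb5 and Tubb6, and the alpha tubulins Tuba1a, Tuba1b, Tuba1c and Tuba4a. They were matched through the accession printed for each probe of the array, which gave 12 probes of the 55681 on the array, with 2 probes each for Tubb2b and Tuba1b. The genes were picked with the differences between doses in these livers already known, so the differences of the tubulins themselves are given as a description with standard errors and no p-value.

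An alpha and a beta tubulin join into a dimer, and dimers polymerise into microtubules, which carry transport in hepatocytes and form the spindle of dividing cells. Cells adjust the amount of tubulin mRNA to the amount of free dimer: TTC5 recognises the start of a newly made tubulin chain on the ribosome, and the mRNA is then degraded through SCAPER and the CCR4-NOT deadenylase. The members differ mostly in where they are made, several being known for high levels in neurons and others for being made in nearly all cells.

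The livers came from 14 female B6C3F1 mice, bought at 5 to 6 weeks of age. The groups were 4 controls gavaged with corn oil, 5 mice given furan at 1 mg/kg and 5 given furan at 8 mg/kg, for 21 days, with livers collected 4 h past the final gavage. Furan is a liver toxicant and carcinogen in rodents that forms during the heating of food. All mice, controls included, drank BrdU, a thymidine analogue that marks new DNA, in their water for 5 days before the end, so no group shows the tubulins without BrdU. Liver RNA of each mouse, labelled with Cy5, was hybridised beside a common reference RNA labelled with Cy3, and each value below is the log2 ratio of liver over reference for 1 probe. A value of 0 means the same signal as in the reference, and levels of different probes are not set against each other.

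The arrays lay on 5 slides. Slides 1 to 4 each held 1 mouse of all 3 groups, and slide 5 held 8 mg/kg mouse 3 and 1 mg/kg mouse 2. Each array had 23071 to 29863 probes well above background with liver RNA. The first principal component of all tested probes and genes took 30.7% of the variance, of which 87.3% lay between slides, and the second took 16.7%, of which 85.5% lay between doses. The fitted differences therefore keep slide as a block. All 10 hepatocyte markers listed were well above background on all 14 arrays.

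Tubb2b and Tubb6 were left out of the promoter search. The motif counts therefore say nothing about Tubb2b, or about Tubb6, which passed the threshold at 8 mg/kg. The other 8 of the 10 genes were searched, each before its start site in the RefSeq promoter table used here (GRCm38.p6). The 250 bases before the start are shown for 4 of them: Tubb2a and Tubb4b, whose differences were the largest of the set, and Tuba1c and Tuba1a, both on chromosome 15, of which the first passed the threshold at 8 mg/kg and the second did not. Capitals mark CCAAT on either strand and TATAAA, and each sequence reads 5′ to 3′ along the gene's strand.
Tubb2a (chr13:34078009-34078258, minus strand): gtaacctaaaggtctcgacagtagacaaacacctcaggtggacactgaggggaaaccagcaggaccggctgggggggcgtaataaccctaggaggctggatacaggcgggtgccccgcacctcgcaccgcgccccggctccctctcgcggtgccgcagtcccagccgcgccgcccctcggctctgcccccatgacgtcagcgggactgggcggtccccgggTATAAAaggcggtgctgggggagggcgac
Tubb4b (chr2:25224703-25224952, minus strand): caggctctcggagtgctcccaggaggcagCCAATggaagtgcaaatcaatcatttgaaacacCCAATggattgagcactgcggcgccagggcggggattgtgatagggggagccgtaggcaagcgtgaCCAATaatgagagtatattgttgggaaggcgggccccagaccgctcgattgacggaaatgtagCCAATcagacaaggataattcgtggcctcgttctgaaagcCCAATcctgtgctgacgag
Tuba1c (chr15:99029641-99029890, plus strand): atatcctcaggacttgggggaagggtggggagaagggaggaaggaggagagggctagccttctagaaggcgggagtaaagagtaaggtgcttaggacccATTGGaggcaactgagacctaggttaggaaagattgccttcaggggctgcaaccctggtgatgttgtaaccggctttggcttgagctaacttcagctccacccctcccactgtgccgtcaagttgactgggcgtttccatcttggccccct
Tuba1a (chr15:98953502-98953751, minus strand): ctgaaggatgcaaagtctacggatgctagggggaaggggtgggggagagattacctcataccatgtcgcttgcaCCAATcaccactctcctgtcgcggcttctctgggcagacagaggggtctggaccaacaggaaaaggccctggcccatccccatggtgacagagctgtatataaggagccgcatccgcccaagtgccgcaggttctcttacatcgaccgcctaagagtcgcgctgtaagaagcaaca

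The Tubb4b window held CCAAT 5 times, starting 221, 188, 122, 59 and 19 bases before the start, and the Tubb2a window held none. CCAAT occurred in 5 of the 8 tubulin windows, Tubb3, Tubb4b, Tubb5, Tuba1a and Tuba1c, against 33.8% of all 32851 windows. Only Tubb2a among the 8 had TATAAA, 29 bases before the start, against 12.4% of all windows, and it was also the only one with the cAMP response element TGACGTCA, 59 bases before the start, against 1.55% of all windows. The GC box GGGCGG was in 6 of 8 windows, against 32.7% of all. TGACNNNGC, the core of the antioxidant response element, was in those of Tuba1a and Tuba1c, against 10.2% of all windows. Neither TGANTCA, the AP-1 element, nor GAANNTTC, the core of the heat shock element, was in any of the 8. Both strands were searched, overlaps between motifs were kept, and these are matches of letters only.

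Tubb2a, a beta tubulin known for high levels in brain, had the largest difference of the set. Its log2 ratios were 2.48, 1.67, 0.65, 1.31 and 0.64 in the 8 mg/kg livers and -0.50, -0.13, -0.29 and -0.22 in the control livers. Every 8 mg/kg mouse was above every control. As measured across slides, the 8 mg/kg mice also differed most among themselves, with an SD of 0.77 (n = 5) against 0.16 (n = 4) in control. That contrast in spread was not seen with slide effects taken out. Centred values then ran between 0.51 and 1.65 at 8 mg/kg and between -1.32 and -0.25 in control. This cannot show that the spreads are alike. Each slide effect was fitted from the 2 or 3 mice of that slide, so the deviation of 1 mouse also shifts its slide mates. The fitted difference was 1.76 ± 0.23 (SE), or 3.38-fold. The 1 mg/kg livers read 0.36, -0.48, -0.27, -0.04 and -0.46, and the highest of them was below the lowest 8 mg/kg liver.

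Tubb4b, a beta tubulin made in most tissues, showed the next largest difference. The 8 mg/kg livers read 0.32, -0.65, -0.59, -0.50 and -0.40, the control livers -1.62, -0.84, -1.43 and -1.36. The groups did not overlap, and mouse 1 stood clear of the other 8 mg/kg mice. The fitted difference was 0.99 ± 0.17 (SE), or 1.98-fold. At 1 mg/kg the values ran between -1.60 and -1.02, within the range of the controls.

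Tubb6, a beta tubulin of many non-neuronal cells, read -2.60, -3.08, -2.99, -3.78 and -3.29 in the 8 mg/kg livers and -3.89, -3.77, -3.79 and -4.09 in the control livers. Of the 8 mg/kg mice, 4 were above all controls and mouse 4 was at the level of the highest control. The fitted difference was 0.71 ± 0.14 (SE), or 1.64-fold.

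The remaining beta tubulins differed less. Tubb5, the beta tubulin of most dividing cells, had 8 mg/kg values between -3.38 and -2.92 and control values between -3.61 and -3.26, a difference of 0.26 ± 0.11 (SE). Tubb2b, close in sequence to Tubb2a and, like it, on chromosome 13, was well above background on 12 arrays with probe 1 and on 10 arrays with probe 2. Its probes gave differences of -0.24 ± 0.12 and -0.25 ± 0.11 (SE), both below 0. Against the reference they disagreed, with control means of -0.05 for probe 1 and -3.69 for probe 2. Tubb3, the neuronal beta tubulin, was not well above background in the liver channel of any array, and no fold is given for it.

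Among the alpha tubulins Tuba1c read -0.02, -0.14, -0.51, -0.39 and -0.35 in the 8 mg/kg livers, against -1.28, -0.68, -0.49 and -0.98 in the control livers. The groups overlapped by 1 mouse on each side, and the fitted difference was 0.64 ± 0.15 (SE), or 1.56-fold. Tuba1b, made in nearly all cells, had 2 probes that gave like differences: 0.52 ± 0.14 (SE) for probe 2, the brighter in the liver channel, and 0.49 ± 0.13 for probe 1. Probe 2 read between -2.83 and -2.07 at 8 mg/kg and between -3.26 and -2.27 in control, so its groups overlapped. Tuba4a, whose protein lacks the usual final tyrosine, had a difference of 0.46 ± 0.15 (SE), with values between -0.45 and 0.82 at 8 mg/kg and between -0.16 and 0.42 in control. Tuba1a, known from developing neurons, differed by 0.21 ± 0.12 (SE). The genes Tuba1a, Tuba1b and Tuba1c all lie on chromosome 15.

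**Figure D1:**
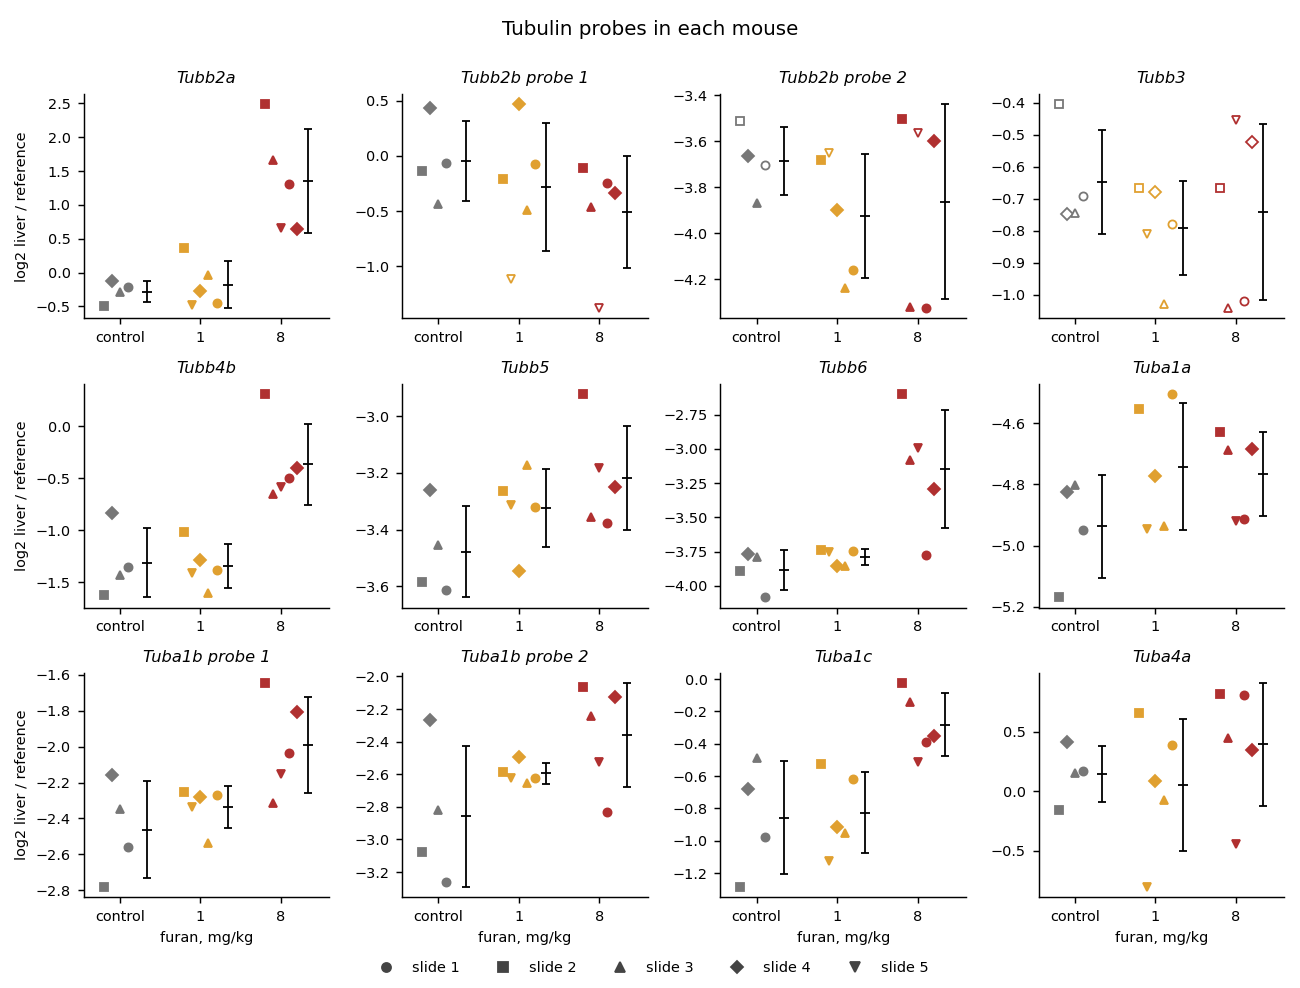
Log2 ratio of liver over reference (y axis, a scale of its own in each panel) for the 12 tubulin probes in each mouse, by dose in mg/kg, with the mean and SD of the group at the right of its points. Symbols are slides, and open symbols are arrays where the probe was not well above background. Tubb2a and Tubb4b had no overlap between 8 mg/kg and control.

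At 8 mg/kg against control 5 of the 11 tubulin probes tested were past the threshold of an adjusted p of 0.05 in limma, all higher: Tubb2a, Tubb4b, Tubb6, Tuba1b probe 2 and Tuba1c. Over all 21991 probes and genes tested 4.08% were past it, 2.72% higher and 1.36% lower. The higher ones were 66.7% of those past it, and 96.4% with each array centred on its median or 53.5% with the liver channel alone. Tubb2a and Tubb4b were the tubulins whose 8 mg/kg values were all above all control values, as were those of 3.45% of all tested, against 2.13% with every value lower. Since the members were chosen on this contrast, the shares are printed side by side and nothing is read from them. Total RNA of whole liver cannot tell apart a change in RNA per cell from a change in the share of cells of a type. Tubulin genes are alike in sequence and some have pseudogenes, so a probe may also bind RNA of a relative, and part of a reading may belong to it.

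At 1 mg/kg against control none of the 11 tubulin probes passed in limma, and of all tested 0% did, with 1510 at an unadjusted p under 0.05. The fitted differences of the 11 probes ran between -0.31 and 0.29, with 0.23 ± 0.23 (SE) for Tubb2a and 0.01 ± 0.17 for Tubb4b. At 8 mg/kg against 1 mg/kg 4 of the 11 probes were past the threshold, all higher, where 5.28% of all tested were past it, 2.41% higher and 2.87% lower. That balance depends on the scaling: higher ones were 45.6% of those past the threshold, but 68.1% with median centring and 64.4% on the scanner's processed signals. The tubulins were Tubb2a with 1.53 ± 0.21 (SE), Tubb4b with 0.98 ± 0.15, Tubb6 with 0.64 ± 0.13 and Tuba1c with 0.54 ± 0.14. The values of Tubb2a, Tubb4b and Tuba1c did not overlap between these doses, as was the case, in the same direction, for 2.01% of all tested (1.61% in the other). Both comparisons of a dose with control share the control mice, and both that involve 8 mg/kg share its mice.

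**Figure D2:**
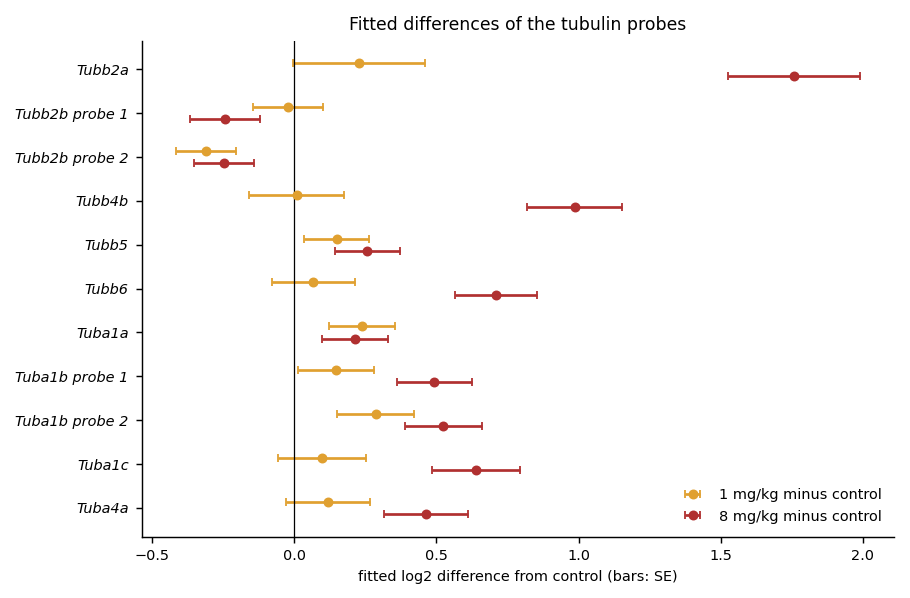
Fitted log2 differences from control (x axis, bars are the SE) of the 11 tubulin probes tested at 1 mg/kg and at 8 mg/kg, with slide as a block. At 8 mg/kg Tubb2a had 1.76 and Tubb4b 0.99, while the differences at 1 mg/kg lay between -0.31 and 0.29.

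One mouse stood high at 8 mg/kg. Mouse 1 had the highest value of the 5 on all 11 tested probes. Control mouse 1, on the same slide 2, had the lowest value of the controls on 6 of the 11. Within slides, the difference between the 8 mg/kg and the control mouse was largest on slide 2 for 10 of the 11 probes. For Tubb2a it was 1.53 on slide 1, 2.98 on slide 2, 1.96 on slide 3 and 0.76 on slide 4. For Tubb4b it was 0.86, 1.94, 0.78 and 0.44 on slides 1 to 4. All 4 slides gave a higher value at 8 mg/kg for 8 of the 11 probes, the exceptions being Tuba4a and both Tubb2b probes. No share over all tested is given for the counts in this paragraph, so nothing about tubulins in particular is read from them.

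Leaving out 8 mg/kg mouse 1 gave 1.5 ± 0.20 (SE) for Tubb2a and 0.80 ± 0.14 for Tubb4b, both still past the threshold. Leaving out control mouse 1 gave 1.45 ± 0.20 and 0.73 ± 0.12. Without either of these mice Tubb2a and Tubb4b were the tubulins past the threshold, 2 in place of 5, and the total of probes and genes past it was 317 without 8 mg/kg mouse 1 and 345 without control mouse 1, against 898 with all arrays. Over all fits with 1 mouse left out, the threshold was missed by Tubb6 in 2 of 14, by Tuba1c in 7 and by Tuba1b in 10. The fits without 1 mg/kg mouse 2 and without 8 mg/kg mouse 3, the 2 mice of slide 5, were the same, so that outcome counts 2 times. On the scanner's own processed signals Tubb2a was the 1 tubulin past the threshold.

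**Figure D3:**
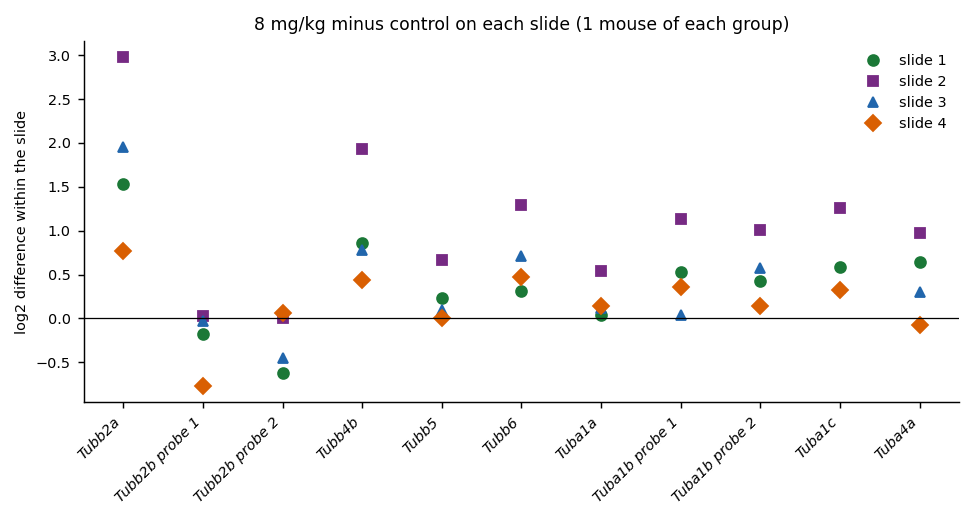
Log2 difference between the 8 mg/kg and the control mouse on each of slides 1 to 4 (symbols) for the 11 tubulin probes tested. Slide 2 had the largest difference for 10 of them, 2.98 for Tubb2a among them.

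Each channel was also fitted on its own. In the reference channel, which held the same RNA on every array, the 8 mg/kg minus control differences of the tubulins ran between -0.05 and 0.12 on the log2 scale, the highest for Tubb5 with 0.12 ± 0.08 (SE). The liver channel alone gave 1.68 ± 0.22 (SE) for Tubb2a, 0.86 ± 0.16 for Tubb4b, 0.64 ± 0.13 for Tubb6 and 0.51 ± 0.14 for Tuba1c, all 4 past the threshold. Tuba1b did not pass there: probe 2 gave 0.32 ± 0.10 (SE), against 0.52 as a ratio to the reference. Tubb5 gave 0.23 ± 0.10 in the liver channel.

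The probe of the Tubb2a pseudogene Tubb2a-ps2, which is no member, read higher as well, with a difference of 1.19 ± 0.19 (SE), and its pattern over the 14 arrays was the closest to that of Tubb2a. Likeness was the root mean square difference of log2 values after slide effects were taken out, among 11635 named genes well above background on all arrays, and was 0.29 for this pseudogene. Sequence shared with Tubb2a makes its reading uncertain. The next were Afp, the fetal plasma protein, at 0.29, Ly6d, a membrane-anchored surface protein, at 0.32, Cbr3, a carbonyl reductase, at 0.34, Cdkn1a, the cell cycle inhibitor p21, at 0.34, and Tnfrsf12a, the receptor of the cytokine TWEAK, at 0.36. Between the tubulins themselves Tubb4b was the closest to Tubb2a at 0.37, then Tubb6 at 0.55 and Tuba1c at 0.58. Fitted differences at 8 mg/kg were 1.90 for Afp and 2.19 for Cdkn1a. Dose differences were kept in the patterns compared, so genes close to Tubb2a were largely bound to rise at 8 mg/kg. The order of Tubb4b, Tubb6 and Tuba1c is also that of their fitted differences. A gene flat over the arrays would score 0.85 against Tubb2a and 0.34 against the mean of the tubulins used next. Scores against these targets are therefore not compared. For the mean of the 8 tubulins detected on all arrays the closest genes were Nid1, a basement membrane protein, at 0.10, Kctd3 at 0.10, Atp6v0e2, a subunit of the vacuolar proton pump, at 0.11, Sowahb at 0.12, Atpif1, the inhibitor of ATP synthase, at 0.13 and Desi2 at 0.13.

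Genes that work on or with tubulin were tested on 6 lists chosen from textbook roles, beside a list of actin genes and a list of genes of dividing cells. At 8 mg/kg against control 5 of the 110 genes measured on the 6 lists rose and 1 fell, which is 5.45%, against 4.08% of all tested. With the actin and dividing-cell genes, none of which passed, it was 6 of 159, or 3.77%. None of the 8 other tubulins measured passed, with a list median of -0.07 against 0.00 for all tested. Tuba8, an alpha tubulin outside the chosen set, had 0.31 ± 0.11 (SE, adjusted p = 0.14, limma), and at 8 mg/kg against 1 mg/kg it rose by 0.49 ± 0.10 (adjusted p = 0.0158, limma). Between these doses 3 of the 159 list genes rose and 1 fell, or 2.52%, against 5.28% of all tested. The others were Ttll3 and Kif20a, which rose by 0.44 ± 0.09 and 0.72 ± 0.20 (SE, adjusted p = 0.0162 and 0.0479, limma), and Tppp, which promotes tubulin polymerisation and fell by 0.63 ± 0.16 (SE, adjusted p = 0.0418, limma). Tubulin folding, by prefoldin, the CCT chaperonin and the tubulin cofactors, had 1 rise among 21 genes and a median of 0.07: Cct5, a chaperonin subunit, rose by 0.45 ± 0.10 (SE, adjusted p = 0.0233, limma). Its log2 ratios lay between -1.21 and -0.95 at 8 mg/kg and between -1.74 and -1.22 in control. The groups did not overlap, though the highest control lay close to the lowest 8 mg/kg mouse.

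None of the 12 genes of tubulin mRNA autoregulation passed, with a median of 0.07. Ttc5 had a difference of -0.05 ± 0.08 (SE) and Scaper one of -0.15 ± 0.10. Of the 17 tubulin-modifying enzymes measured 1 rose and 1 fell. Ttll3, a ligase that adds glycine to tubulin, rose by 0.40 ± 0.10 (SE, adjusted p = 0.0394, limma), and Atat1, the acetyltransferase of alpha tubulin, fell by 0.49 ± 0.12 (adjusted p = 0.0343, limma). Among the 28 microtubule-associated and dynamics proteins 2 rose: Spast, a severing enzyme, by 0.49 ± 0.09 (adjusted p = 0.0121, limma) and Mapre1, which binds growing ends, by 0.37 ± 0.09 (adjusted p = 0.0317, limma). Of the 24 kinesin, dynein and dynactin subunits Kif5a, a kinesin heavy chain, rose by 0.37 ± 0.08 (adjusted p = 0.0178, limma). With 8 mg/kg mouse 1 left out 2 list genes passed in place of 6, and with control mouse 1 left out 1 did. None of the 32 genes of the actin cytoskeleton passed, with a median of 0.12.

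**Figure D4:**
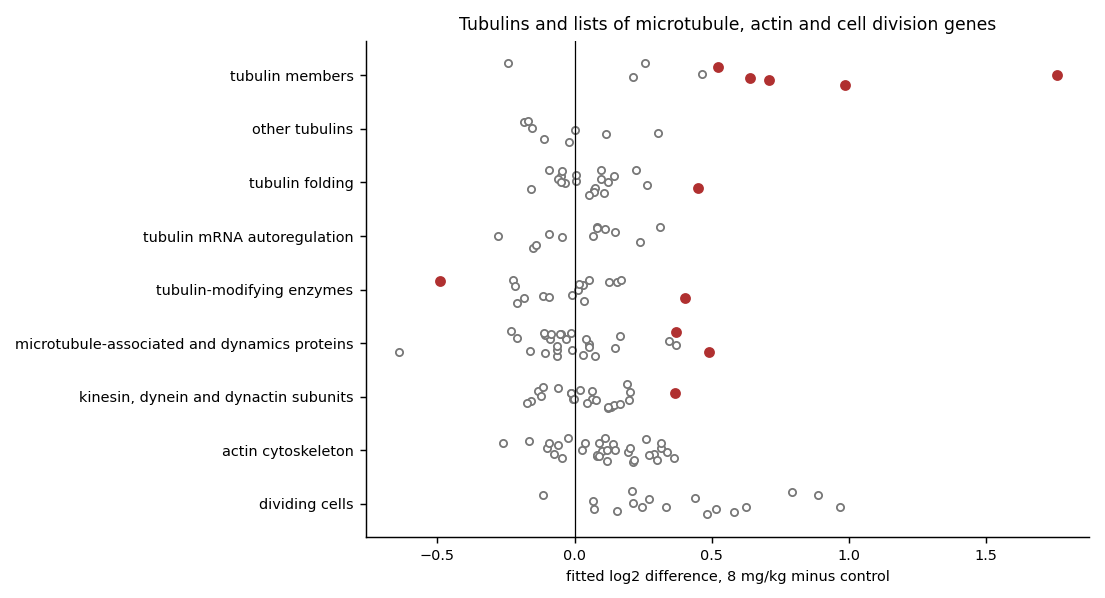
Fitted log2 difference at 8 mg/kg minus control (x axis) of the 9 tubulins tested, 1 probe a gene, and of the genes of 8 lists (rows). Filled points passed an adjusted p of 0.05, and points are spread within a row for sight only. The tubulins reach 1.76, and 6 of the 159 list genes are filled.

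None of the 17 dividing-cell genes measured passed at 8 mg/kg against control, though their median was 0.34. Cdc20, an activator of the anaphase-promoting complex, had 0.97 ± 0.29 (SE, adjusted p = 0.0769, limma), and Kif20a, a kinesin of cell division, had 0.79 ± 0.21 (adjusted p = 0.053, limma). Their mean over the list, centred on all arrays, was 1.07, -0.25, 0.72, -0.35 and 0.25 in 8 mg/kg mice 1 to 5, and lay between -0.50 and 0.10 in control. It was high in mouse 1, where Tubb2a was also highest. As measured across slides it was also high in mouse 3, where Tubb2a was near the lowest of its group. The other slide 5 array, 1 mg/kg mouse 2, was likewise lowest of its group for Tubb2a (-0.48) and highest for this mean (0.15). Within slide 5, 8 mg/kg mouse 3 was higher by 1.14 for Tubb2a, and also higher for the mean of dividing-cell genes, at 0.72 against 0.15. With slide effects taken out and values centred, Tubb2a was 0.85 in 8 mg/kg mouse 3 and lowest of that group in mouse 5, at 0.51. The 8 mg/kg mice 2 and 4 had Tubb2a at 1.67 and 1.31 with a mean of dividing-cell genes inside the range of the controls. The control mice on their slides, 3 and 1, had means of -0.50 and -0.39. How Tubb2a relates to cell division was not tested. Against the control on the same slide, the mean of the dividing-cell genes was higher by 0.05 on slide 1 (mouse 4), 1.07 on slide 2 (mouse 1), 0.25 on slide 3 (mouse 2) and 0.15 on slide 4 (mouse 5), and slide 5 with mouse 3 held no control.

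**Figure D5:**
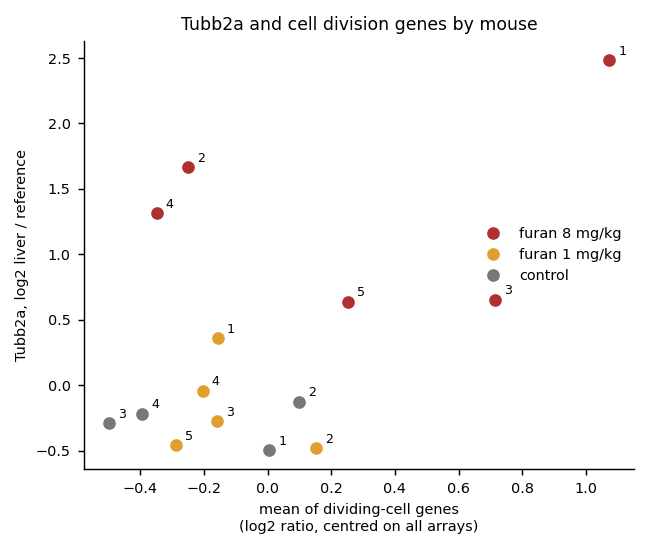
Tubb2a (y axis, log2 ratio of liver over reference) against the mean of 17 dividing-cell genes (x axis, log2 ratio centred on all arrays), 1 point a mouse with its number, coloured by dose. Values are not adjusted for slide. Of the 8 mg/kg mice, 2 and 4 have high Tubb2a with a dividing-cell mean below 0, as the control mice on their slides also have. Mouse 3 of that dose has a mean of 0.72 with Tubb2a at 0.65.

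Markers of other liver cells were read beside these values. Of 8 lists, 1 gene passed at 8 mg/kg against control: Cps1, the urea cycle enzyme of hepatocytes, fell by 0.34 ± 0.08 (SE, adjusted p = 0.0332, limma). List medians lay between -0.12, for lymphocytes, and 0.03, for Kupffer cells and for stellate cells. The Kupffer cell receptor Marco had 0.66 ± 0.19 (SE, adjusted p = 0.0619, limma), with the 8 mg/kg mouse higher on all 4 slides. It was the highest of the 9 Kupffer cell genes measured, none of which passed, and the lowest was Cd163 at -0.14. Neurons and Schwann cells were looked at because several tubulins are known from nerve: Nefl, Nefm, Uchl1 and Gap43 were well above background on none of the arrays, and the 5 measured genes of that list had a median of -0.03 with a summed liver signal (log2) between 12.16 and 12.64 at 8 mg/kg and between 12.07 and 12.68 in control. The part of other cell types in the tubulin differences was not tested.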

How the data were processed

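Liver RNA of 14 mice was read on 2-colour Agilent arrays, 1 array a mouse, with Cy5 liver over Cy3 reference throughout. The deposited scanner files hold spot intensity in both channels, read with Feature Extraction 10.7.3.1, per the file headers. A further table of ratio values deposited by the authors, normalized in a way the sources do not give, served as an alternative only: log2 of its columns correlated with the values here at 0.992 or more, with column medians of 0.976 to 0.990.

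Median intensities were corrected with normexp (offset 50) and normalized within arrays by loess in limma 3.58.1 (R 4.3.3), with control spots at weight 0 and outlier spots removed (178 to 336 an array, none saturated). Probes well above background in the liver channel on at least 4 arrays were kept, 28883 of 55681. The probe with the highest mean liver signal stood for a gene, and unnamed probes stood alone, giving 21991 tested, of which 13788 had symbols. Names came through RefSeq accessions, which named 26413 probes. Differences were fitted over all arrays with slide as a block, with Benjamini-Hochberg adjustment and a threshold of 0.05. The threshold of a second probe of a gene was read in a fit of every probe, where Tuba1b probe 1 did not pass. The number of arrays limits the precision. Figures used matplotlib 3.10.9. The alternatives were block, background correction, scaling, filter, probe choice and leaving out mice.

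The members and lists were chosen with earlier results of these data known. Named were all members, list genes past the threshold at 8 mg/kg against control (with a few more chosen after their values were seen), and the 6 genes closest to Tubb2a and to the mean of the tubulins.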

Additional observations from a re-analysis of the deposited data

Results flagged for a closer look

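Of 36 tests, 1 for each tubulin probe in each group, 3 found a mouse far from the rest of its group, where chance gives about 1 in 20. Tubb4b in 8 mg/kg mouse 1 was 0.32, with the next mouse at -0.40. Tubb2b probe 1 in 8 mg/kg mouse 3 was -1.38, with the next at -0.47, on an array where this probe was not well above background. The other slide 5 array, 1 mg/kg mouse 2, was also low on this probe, at -1.12, and also not well above background. With slide effects taken out and values centred, 8 mg/kg mouse 3 was at -0.17, and mouse 5 was the lowest of that group at -0.52. Tubb3 in control mouse 1 was -0.41, with the next at -0.69, on a probe not well above background on any array.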

How the results depend on the processing

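The differences of Tubb2a at 8 mg/kg against control lay between 1.45 and 1.99 in 27 alternatives, past the threshold in all of them. Those of Tubb4b lay between 0.73 and 1.15, past it in 25. Among the 27, the 2 fits that each left out 1 mouse of slide 5 were the same. Tubb6 passed in 21 of 27, Tuba1c in 16, Tuba1b in 7 and Tuba4a in 1, and none of these 6 changed sign. The main totals were 898 genes at 8 mg/kg against control, 1161 at 8 against 1 mg/kg, 0 at 1 mg/kg against control, 5 tubulins and 6 list genes. Without the slide block they were 274, 298 (62.1% higher), 0, 3 and 1. With the replicate block they were 122, 150, 0, 1 (Tubb2a) and 0. Mice that share a number do not pair: their deviations correlated at -0.43 to 0.24. The scanner's processed signals gave 381 and 433 genes, 1 tubulin and 3 list genes. Median centring, which moved the median of all tested to 0.14 at 8 mg/kg and 0.15 at 1 mg/kg, gave 1350, of which 96.4% were higher against 66.7% in the main fit, 404 and 4 genes and 19 list genes. The liver channel alone gave 11 list genes, with 53.5% of 1326 genes higher. The 2 groups alone gave 301 genes, 2 tubulins and 1 list gene, and leaving out slide 3 gave 403, 3 and 3. For 1 mg/kg against control 1 gene passed with no background correction, with the authors' deposited table and with no filter. Leaving out 1 mouse gave 317 to 869 genes at 8 mg/kg against control, 421 to 1243 at 8 against 1 mg/kg, 0 to 3 at 1 mg/kg against control, 2 to 6 tubulins and 1 to 8 list genes. The cause of these changes was not tested. Tubulins dim in liver, Tubb3 and Tubb2b, are limited by background.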
